A study of Mus musculus with 9 samples.

Results

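The genes described here were 9 members of the transforming growth factor beta (TGF-beta) system, chosen by symbol. They were the ligands Tgfb1, Tgfb2 and Tgfb3, the receptors Tgfbr1 and Tgfbr2, the latent TGF-beta binding proteins Ltbp1 and Ltbp2, the TGF-beta-induced matrix protein gene Tgfbi, and Inhba, which encodes the beta A subunit of activin A. They make up 9 of 53379 gene IDs in the count tables, and all 9 passed the filter on low counts that left 17478 genes for testing. RNA was sequenced from mouse knee joints in 3 groups of 3 libraries. In the PC2 group, male C57BL/6 mice had their anterior cruciate ligament transected (ACLT) at 8 weeks of age, received a lentivirus expressing PC2 into the joint 1 week later, and gave their joints 8 weeks after the injection. The Luc group had the same operation and schedule with a lentivirus expressing Luc, and the Non surgery group was not operated on, at an age the labels do not state. ACLT destabilises the knee and is a common model of osteoarthritis. Luc and Non surgery mice differed in the operation and in the virus injection, whose parts cannot be told apart. Per the labels' protocols the RNA of a group was mixed and run as 3 technical repeats, so each group is 1 pool, and every SD and p-value below holds technical spread only and no difference between mice.

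TGF-beta is secreted in a latent form, held by its own propeptide, and is stored in the matrix through latent TGF-beta binding proteins that attach to fibrillin microfibrils. Integrins that contain the alpha V chain, proteases and thrombospondin can release it. The free ligand binds the type II receptor Tgfbr2, which activates the type I receptor Tgfbr1, which in turn phosphorylates the transcription factors Smad2 and Smad3; activin uses its own receptors and the same Smads. In joints TGF-beta maintains articular cartilage, and it is also known to drive synovial fibrosis and the growth of osteophytes in mouse models.

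All 9 genes were called higher in the Luc group than in the Non surgery group, and 7 of the 9 were lower in PC2 than in Luc libraries. Both comparisons use the same Luc pool, so they are not independent. A deviation of that pool alone would enter them with opposite signs. The differences were of moderate size. From Luc against Non surgery the log2 fold changes ran from 0.15 in Tgfb1 to 1.27 in Tgfb3, with a median of 0.73. From PC2 against Luc they ran from -0.46 in Ltbp2 to -0.01 in Tgfb3, with a median of -0.19. The medians over all genes tested were 0.025 and 0.008.

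**Figure D1:**
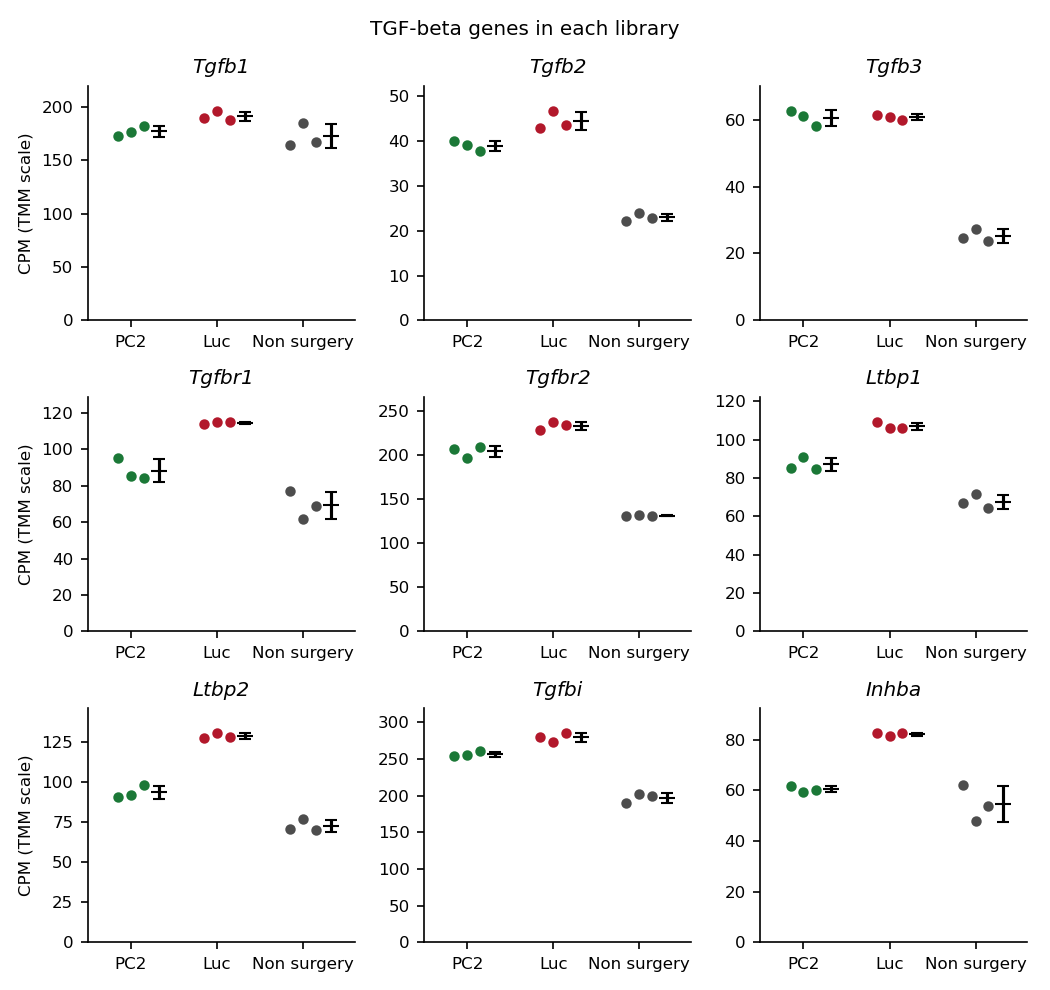
Levels in CPM (counts scaled to the library total, TMM scale, vertical axes) of the 9 genes in each library, 1 point a library, with PC2, Luc and Non surgery from left to right and the mean ± SD of the 3 libraries beside the points. Every Luc library lay above every Non surgery library in all 9 panels, and the PC2 libraries lay below the Luc libraries in all panels but that of Tgfb3.

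The background for these counts is wide. Of all genes tested, 31.1% were called higher and 27.7% lower in Luc libraries than in Non surgery ones at an adjusted p under 0.05 (edgeR's quasi-likelihood test, Benjamini-Hochberg adjustment over all genes). Between PC2 and Luc libraries 16.1% were called higher and 18.6% lower. All Luc libraries stood above all Non surgery libraries for the 9 members and for 33.1% of all genes, and below them for 29.8% of all genes. All PC2 libraries stood below all Luc libraries for 8 of the 9 members and for 24.7% of all genes, and above them for 23.3%. Only Tgfb3 in Luc against Non surgery passed a fold of 2, which 9.43% of all genes did in that direction and 6.32% in the other. In PC2 against Luc none of the 9 members fell by that much, and 2% of all genes did.

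Tgfb1 encodes the most widely expressed of the ligands (Ensembl ENSMUSG00000002603; chromosome 7, 25687002 to 25705077, plus strand, GRCm38). It stood at 172, 176 and 182 CPM in PC2 libraries, at 189, 196 and 188 CPM in Luc libraries, and at 164, 185 and 167 CPM in Non surgery libraries. The Luc libraries were the highest, and the PC2 and Non surgery libraries overlapped. In Luc against Non surgery the log2 fold change was 0.15 ± 0.043 (SE, adjusted p = 0.00734). In PC2 against Luc it was -0.11 ± 0.043 (adjusted p = 0.0585), which did not pass, and without Non surgery replicate 1 or 2 it did (adjusted p = 0.0446 and 0.00842). Platelets carry TGF-beta1, and all 8 megakaryocyte and platelet markers, Ppbp and Itga2b the most abundant, were lower in Luc libraries than in Non surgery ones, as were 27.7% of all genes. Their summed level was 415.0 to 429.3 CPM in Luc and 1227.4 to 1275.7 CPM in Non surgery libraries. The part of this difference in the level of Tgfb1 was not tested.

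Tgfb2, whose product needs the co-receptor betaglycan for strong binding to Tgfbr2, lies on chromosome 1 (ENSMUSG00000039239, 186622792 to 186705989, minus strand). Its levels were 39.9, 39.1 and 37.7 CPM in PC2 libraries, 42.9, 46.6 and 43.5 CPM in Luc libraries, and 22.2, 23.8 and 22.9 CPM in Non surgery libraries. The 3 groups did not overlap, and PC2 libraries stood much nearer to Luc than to Non surgery libraries. Tgfb2 rose 1.93-fold in Luc against Non surgery (log2 fold change 0.95 ± 0.054 SE, adjusted p = 1.15e-10). In PC2 against Luc it fell by 0.19 ± 0.050 on the log2 scale (adjusted p = 0.0076), which no longer passed when Luc replicate 2 was left out (adjusted p = 0.0518) or with DESeq2 (adjusted p = 0.0554).

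Tgfb3, which in mice is needed for palate and lung development, lies on chromosome 12 (ENSMUSG00000021253, 86056745 to 86079041, minus strand). It had 62.5, 61.0 and 57.9 CPM in PC2 libraries, 61.5, 60.9 and 59.8 CPM in Luc libraries, and 24.6, 27.5 and 23.6 CPM in Non surgery libraries. Both operated groups stood far above the unoperated one and overlapped each other. The rise in Luc against Non surgery was 2.41-fold (log2 fold change 1.27 ± 0.056 SE, adjusted p = 4.5e-12). Between PC2 and Luc the log2 fold change was -0.01 ± 0.052 (adjusted p = 0.94). A share of 12.4% of its exon bases is also annotated to genes on the other strand, and no source used here gives the strand setting of the counting, so reads from that stretch cannot be told apart. The same holds for 9.34% of the exon bases of Ltbp2 and 2.14% of those of Tgfb2, and for no exon base of the other 6 members.

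Because the ligands rose by unequal amounts, their mixture differed between groups. Per kilobase of exon, Tgfb1 made up 58.8% ± 1.5 of the ligand transcripts in PC2, 59.6% ± 0.22 in Luc and 74.9% ± 0.30 in Non surgery libraries (SD, n = 3 technical repeats of 1 pool). Tgfb3 made up 30.0% ± 1.2 in PC2, 28.3% ± 0.54 in Luc and 16.4% ± 0.45 in Non surgery libraries. Tgfb2 remained the smallest part in every group, with 11.3% ± 0.33 in PC2, 12.1% ± 0.33 in Luc and 8.71% ± 0.27 in Non surgery libraries. In Luc against Non surgery the shares of Tgfb1, Tgfb2 and Tgfb3 differed by -15.3, 3.36 and 11.9 points. The libraries did not overlap in any of these shares, and each exact two-sided permutation p was 0.1, the smallest that 3 libraries against 3 can give, and one over technical repeats only. Between PC2 and Luc libraries the differences were -0.858, -0.811 and 1.67 points (exact permutation p = 0.4, 0.1 and 0.2).

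**Figure D2:**
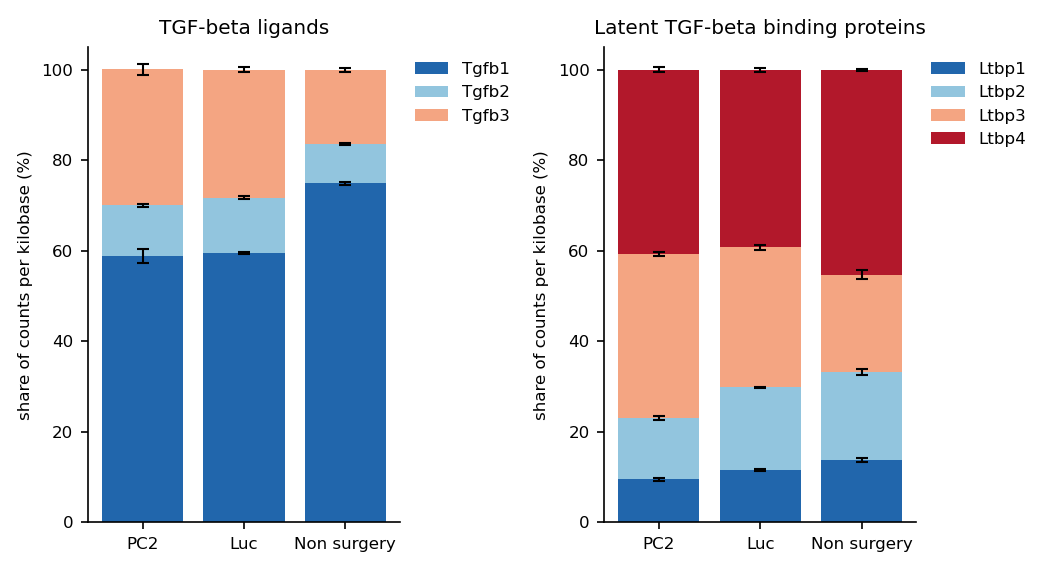
Stacked bars of each gene's mean share of the counts per kilobase of exon (vertical axis, percent) within the TGF-beta ligands (left) and the latent TGF-beta binding proteins (right) in PC2, Luc and Non surgery libraries, with the SD of 3 libraries at the top of each segment. Tgfb1 has a mean of 58.8% of the ligands in PC2, 59.6% in Luc and 74.9% in Non surgery libraries, and Ltbp3 takes its largest share, 36.3%, in PC2 libraries.

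Both receptors were higher in Luc libraries than in Non surgery ones and lower in PC2 than in Luc libraries. Tgfbr1, the type I receptor kinase (ENSMUSG00000007613; chromosome 4, 47353222 to 47414931, plus strand), had 95.5, 85.2 and 84.5 CPM in PC2 libraries, 114, 115 and 115 CPM in Luc libraries, and 77.1, 62.0 and 68.7 CPM in Non surgery libraries. Tgfbr2, the ligand-binding type II kinase (ENSMUSG00000032440; chromosome 9, 116084293 to 116175360, minus strand), had 207, 197 and 209 CPM in PC2 libraries, 229, 237.5 and 234 CPM in Luc libraries, and 130.5, 132 and 131.5 CPM in Non surgery libraries. For each receptor the 3 groups were separate, with the PC2 libraries between the others. Tgfbr1 rose by 0.73 ± 0.064 on the log2 scale in Luc against Non surgery (adjusted p = 4.19e-08) and fell by 0.37 ± 0.063 in PC2 against Luc (adjusted p = 0.00023). Tgfbr2 rose by 0.83 ± 0.034 (adjusted p = 1.88e-12) and fell by 0.19 ± 0.034 (adjusted p = 0.000344) in the same comparisons. Per kilobase of exon the ratio of Tgfbr2 to Tgfbr1 was 1.85 ± 0.12 in PC2, 1.63 ± 0.024 in Luc and 1.53 ± 0.17 in Non surgery libraries. PC2 libraries, at 1.73 to 1.98, did not overlap Luc libraries at 1.60 to 1.65, while Luc and Non surgery libraries (1.35 to 1.70) overlapped.

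Both latent TGF-beta binding proteins were lower in PC2 than in Luc libraries and higher in both than in Non surgery libraries. Ltbp1, which binds the latent complex covalently and anchors it in the matrix (ENSMUSG00000001870; chromosome 17, 75005568 to 75392512, plus strand), had 85.5, 90.9 and 85.0 CPM in PC2 libraries, 109, 106 and 106 CPM in Luc libraries, and 67.0, 71.5 and 64.2 CPM in Non surgery libraries. Ltbp2, a microfibril protein of the same family that does not hold latent TGF-beta (ENSMUSG00000002020; chromosome 12, 84783212 to 84876532, minus strand), had 90.3, 91.7 and 98.2 CPM in PC2 libraries, 127, 130 and 128 CPM in Luc libraries, and 70.7, 77.1 and 70.2 CPM in Non surgery libraries. Again no groups overlapped and PC2 libraries lay between the others. Ltbp1 rose by 0.66 ± 0.045 on the log2 scale in Luc against Non surgery (adjusted p = 1.4e-09) and fell by 0.30 ± 0.044 in PC2 against Luc (adjusted p = 7.37e-05). Ltbp2 rose by 0.82 ± 0.045 (adjusted p = 8.71e-11) and fell by 0.46 ± 0.045 (adjusted p = 7.45e-07), the largest fall among the 9 genes.

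The other family members, Ltbp3 and Ltbp4, did not fall in PC2 against Luc. Ltbp3, which also binds latent TGF-beta and is needed for bone growth in mice, had a log2 fold change of 1.43 ± 0.063 in Luc against Non surgery (adjusted p = 4.32e-12) and of 0.21 ± 0.061 in PC2 against Luc (adjusted p = 0.0118). Ltbp4 had 0.69 ± 0.047 (adjusted p = 1.14e-09) and 0.04 ± 0.046 (adjusted p = 0.53). Per kilobase of exon, Ltbp3 made up 36.3% ± 0.41 of the 4 family members in PC2, 31.0% ± 0.55 in Luc and 21.5% ± 0.98 in Non surgery libraries. Ltbp2 made up 13.4% ± 0.47 in PC2, 18.2% ± 0.15 in Luc and 19.4% ± 0.61 in Non surgery libraries, and Ltbp1 9.58% ± 0.33, 11.6% ± 0.24 and 13.8% ± 0.39 in the same order. Ltbp4 made up 40.7% ± 0.54, 39.1% ± 0.50 and 45.3% ± 0.19, the largest part on this scale. Without division by exon length Ltbp3 exceeded Ltbp4 in PC2 (40.9% and 32.7%) and in Luc libraries (34.8% and 31.3%), but not in Non surgery libraries (24.5% and 36.9%). Each of these 4 shares had an exact permutation p of 0.1 over technical repeats in PC2 against Luc and in Luc against Non surgery, the smallest possible.

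Tgfbi and Inhba stand for response and for a related ligand. Tgfbi, a secreted adhesion protein named for its induction by TGF-beta (ENSMUSG00000035493; chromosome 13, 56609523 to 56639562, plus strand), had 253, 255 and 261 CPM in PC2 libraries, 280, 273 and 285 CPM in Luc libraries, and 190, 202.5 and 199 CPM in Non surgery libraries. Inhba (ENSMUSG00000041324; chromosome 13, 16011851 to 16031621, plus strand) had 61.9, 59.4 and 60.2 CPM in PC2 libraries, 82.5, 81.4 and 82.5 CPM in Luc libraries, and 61.9, 47.9 and 53.7 CPM in Non surgery libraries. The 3 groups of Tgfbi were separate, whereas for Inhba all PC2 libraries lay within the range of the Non surgery libraries. Tgfbi rose by 0.50 ± 0.035 on the log2 scale in Luc against Non surgery (adjusted p = 1.54e-09) and fell by 0.12 ± 0.034 in PC2 against Luc (adjusted p = 0.00969). This last result did not pass without Luc replicate 3 (adjusted p = 0.0503) or with upper-quartile scaling (adjusted p = 0.0529). Inhba rose by 0.59 ± 0.065 (adjusted p = 6.61e-07) and fell by 0.44 ± 0.064 (adjusted p = 6.03e-05) in the same comparisons.

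In PC2 against Non surgery, 7 of the 9 genes were higher and none was lower, where 31.5% of all genes were called higher and 31.2% lower. All PC2 libraries stood above all Non surgery libraries for 7 members and 33.4% of all genes, and below them for 32.5%. Tgfb3 alone passed a fold of 2, as did 9.83% of all genes upward and 6.53% downward. This comparison shares its libraries with both others. The rises were 1.26 ± 0.056 on the log2 scale in Tgfb3 (adjusted p = 4.98e-12), 0.76 ± 0.054 in Tgfb2, 0.64 ± 0.034 in Tgfbr2, 0.38 ± 0.034 in Tgfbi, 0.37 ± 0.045 in Ltbp1, 0.36 ± 0.046 in Ltbp2 and 0.35 ± 0.065 in Tgfbr1 (adjusted p = 0.000167). Tgfb1 had 0.04 ± 0.043 (adjusted p = 0.457) and Inhba 0.15 ± 0.066 (adjusted p = 0.0566), neither of which passed. Inhba passed without Non surgery replicate 1 (0.25, adjusted p = 0.000789), with library-size scaling (0.31, adjusted p = 0.000437), with upper-quartile scaling (0.16, adjusted p = 0.0463) and without a count filter (0.15, adjusted p = 0.0135). Tgfb1 passed without Non surgery replicate 2 (0.09, adjusted p = 0.0282) and with library-size scaling (0.20, adjusted p = 0.001). That scaling put the median of all genes at 0.168 and the calls over all genes at 7607 higher and 3761 lower, where TMM scaling gave 5505 and 5447.

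**Figure D3:**
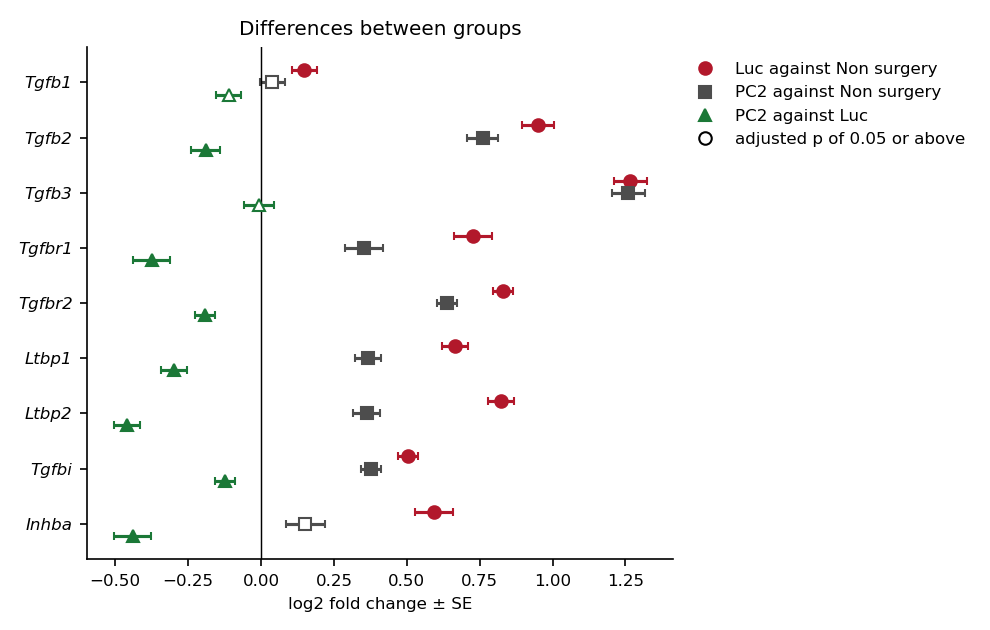
Log2 fold changes ± SE (horizontal axis) of the 9 genes in Luc against Non surgery (circles), PC2 against Non surgery (squares) and PC2 against Luc (triangles), with open symbols where the adjusted p was 0.05 or above. Tgfb3 keeps the same position in both comparisons with Non surgery, at 1.27 and 1.26, while Ltbp2 and Inhba lie farthest to the left in PC2 against Luc, at -0.46 and -0.44.

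Compared per kilobase of exon, Tgfbi was the most abundant of the 9 transcripts in every group, followed by Tgfb1 and Tgfbr2. Tgfbi had 68.0 ± 1.0 CPM per kilobase in PC2, 74.1 ± 1.6 in Luc and 52.3 ± 1.8 in Non surgery libraries, and Tgfb2, the lowest, had 6.71 ± 0.19, 7.66 ± 0.34 and 3.96 ± 0.15 in this order. Tgfb3 was the fourth in PC2 and in Luc libraries, with 17.9 ± 0.69 and 18.0 ± 0.25 CPM per kilobase, and the seventh in Non surgery libraries with 7.46 ± 0.59. In PC2 and in Luc libraries no gene overlapped its neighbour in the order. In Non surgery libraries Ltbp2 (8.88 ± 0.47), Inhba (8.53 ± 1.1) and Tgfb3 overlapped their neighbours.

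Library totals lay between 17835989 and 19004316 counts in genes. Markers of cartilage, bone, fibroblasts and muscle were all detected, with no marker at 0 in any group. In bulk joint RNA, fewer cells of a type and less RNA per cell cannot be told apart.

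The rise of the 9 genes in Luc against Non surgery stood beside different levels of cell type markers. All 10 skeletal muscle markers were lower, with Myh4 and Acta1 the most abundant, and their sum was 22873.6 to 23369.1 CPM in Luc and 57586.9 to 59096.4 CPM in Non surgery libraries. All 8 fibroblast markers (Prg4 and Dcn the most abundant) were higher, with sums of 11453.6 to 11512.5 CPM in Luc and 3393.0 to 3714.5 CPM in Non surgery libraries. All 8 chondrocyte markers and all 8 osteoblast markers were higher too, as were 5 of 8 macrophage, 7 of 8 eosinophil and 6 of 8 endothelial markers. Over all genes tested 31.1% were higher and 27.7% lower. The list medians on the log2 scale were 1.72 for fibroblasts, 2.24 for chondrocytes and 1.55 for osteoblasts, against 0.73 for the 9 TGF-beta genes. The 8 immediate-early genes, which respond within minutes to stress and handling, were all higher, with sums of 2407.9 to 2519.9 CPM in Luc and 225.6 to 252.8 CPM in Non surgery libraries. Reads outside annotated genes made up 8.05% to 8.17% of the reads in PC2, 8.88% to 9.25% in Luc and 7.29% to 7.37% in Non surgery libraries. The means of all 9 members share this order. However, the PC2 and Luc libraries of Tgfb3 and the PC2 and Non surgery libraries of Tgfb1 and Inhba overlapped. The share of all genes in this order was not counted, so the match is no result about the members. The part of these differences in the levels of the 9 genes was not tested. With library-size scaling the median log2 fold change over all genes was 0.185, and 7754 genes were called higher and 3304 lower, where TMM scaling gave 5431 and 4848. All 9 members were called higher under each of the 4 scalings tried.

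Marker levels also differed between PC2 and Luc libraries. Fibroblast markers had sums of 11652.7 to 12043.5 CPM in PC2 and 11453.6 to 11512.5 CPM in Luc libraries, and 2 of the 8 were higher and 5 lower. The 2 higher were the most abundant, so the higher sum does not stand for the list. Prg4 had means of 5913.2 CPM in PC2 and 5378.5 CPM in Luc libraries, and Dcn 2747.0 and 2450.1 CPM. All 8 chondrocyte markers were higher, with Col2a1 and Acan the most abundant and sums of 5637.6 to 5692.8 CPM in PC2 and 3337.2 to 3428.1 CPM in Luc libraries. All 8 eosinophil markers, led by Prg2 and Epx, were lower, with sums of 76.2 to 81.2 CPM in PC2 and 1259.6 to 1384.4 CPM in Luc libraries. All 8 endothelial markers, led by Pecam1 and Vwf, were lower, with 433.1 to 434.6 CPM in PC2 and 539.1 to 542.1 CPM in Luc libraries. All 8 immediate-early genes, led by Fos and Fosb, were lower, with 1192.9 to 1215.2 CPM in PC2 and 2407.9 to 2519.9 CPM in Luc libraries. Macrophage markers (Lyz2 and Csf1r the most abundant) had 2664.8 to 2725.6 CPM in PC2 and 2664.9 to 2812.3 CPM in Luc libraries. Most of these sums was Lyz2, with means of 1943.5 CPM in PC2 and 1960.9 CPM in Luc libraries. Of the 8 macrophage markers 1 was higher and 4 were lower. Of the 10 muscle markers 7 were higher and 1 lower, of the 8 osteoblast markers (Col1a1 and Spp1 the most abundant) 4 were higher and 3 lower, and of the 8 platelet markers 3 were higher and 2 lower. Over all genes tested 16.1% were higher and 18.6% lower, and the smaller of these counts lay near those shares. The part of these markers in the lower levels of the TGF-beta genes was not tested.

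Of 22 listed genes known to respond to TGF-beta, 20 were higher and 1 was lower in Luc libraries than in Non surgery ones, 16 of them at least 2-fold higher, with a median log2 fold change of 1.80. Over all genes tested, 31.1% were higher, 27.7% lower and 9.43% at least 2-fold higher. This list, like the others, was chosen with earlier results of these data known, so the counts describe it and do not test it. The largest changes were those of the fibrillar collagen gene Col3a1, the crosslinking enzyme gene Loxl2 and Cthrc1, a secreted protein of activated fibroblasts, which rose by 2.70 ± 0.060 on the log2 scale to 65.7 ± 1.5 CPM in Luc, against 10.1 ± 0.82 CPM in Non surgery libraries. Between PC2 and Luc, 16 of the 22 were lower in PC2 and 4 higher, with a median of -0.23, where 18.6% of all genes were lower and 16.1% higher. Aspn, a small leucine-rich proteoglycan that binds TGF-beta, had 183.6 ± 24 CPM in PC2 and 340.8 ± 13 CPM in Luc libraries (-0.89 ± 0.11). The cytokine gene Il11 was low, with 0.965 ± 0.17 CPM in PC2 and 1.79 ± 0.51 CPM in Luc libraries (-0.89 ± 0.29, adjusted p = 0.0267).

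The 4 response genes that rose in PC2 against Luc, named after their values were seen, were the bone and tendon collagens Col1a1 (0.32) and Col1a2 (0.24), the smooth muscle actin Acta2 (0.40) and Comp (0.44), a matrix protein of cartilage and tendon. Of all genes tested 16.1% were higher, so 4 of the 22 lay near that share, and these are values of single genes. Comp also showed one of the largest rises of the list in PC2 against Non surgery, at 2.74 ± 0.054, beside Col3a1 (2.79) and Loxl2 (2.54). In that comparison 19 of the 22 were higher and 2 lower, where 31.5% of all genes were higher and 31.2% lower. Col1a1 is also in the osteoblast list, and many genes of this list are matrix genes that fibroblasts and bone cells express under other signals as well.

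**Figure D4:**
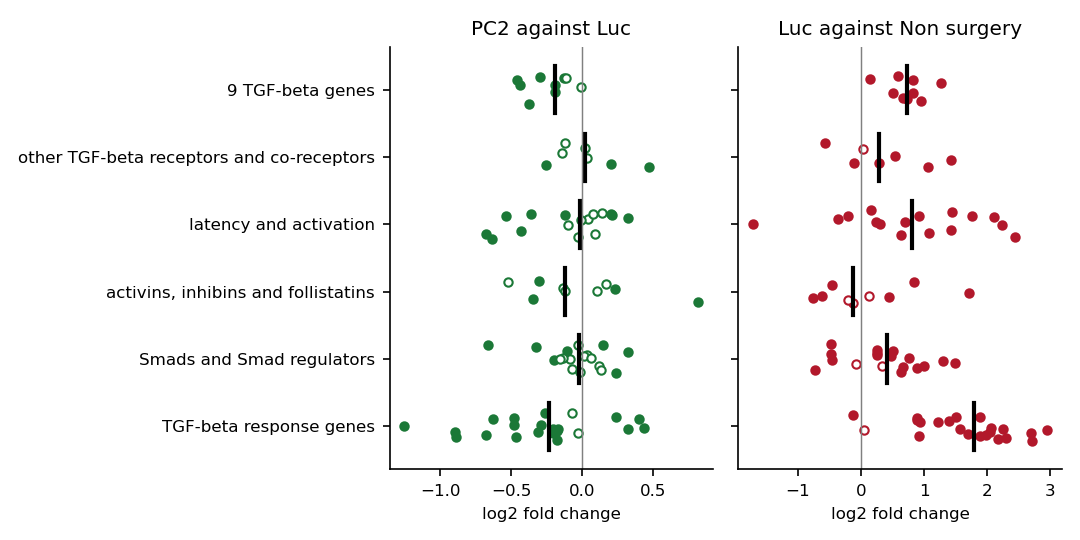
Log2 fold changes (horizontal axes) of single genes (points, filled at an adjusted p under 0.05) in the 9 TGF-beta genes and 5 further pathway lists, in PC2 against Luc (left) and Luc against Non surgery (right), with the list median as a black bar. The response genes have medians of -0.23 and 1.80, and the 9 TGF-beta genes of -0.19 and 0.73.

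Of 16 genes of latency and activation, 13 were higher and 3 were lower in Luc libraries than in Non surgery ones. Over all genes tested 31.1% were higher and 27.7% lower, and the median of the 16 was 0.80. Plat, the tissue plasminogen activator, rose by 2.45 ± 0.080 on the log2 scale, the membrane-bound protease gene Mmp14 by 2.24 ± 0.046 and Fbn1, which encodes the microfibril protein fibrillin-1, by 2.11 ± 0.034. The 3 that fell, named after their values were seen, were Itgb6 (-1.71), the beta chain of an epithelial integrin that activates TGF-beta, Thbs1 (-0.36), the gene of thrombospondin-1, and Nrros (-0.21). Against Luc, 6 of the 16 were lower in PC2 libraries and 3 higher, with a median of -0.02. Over all genes tested 18.6% were lower and 16.1% higher, so the 3 higher genes lay near that share. Fbn1 fell to 207.5 ± 3.3 CPM in PC2, against 330.9 ± 4.2 CPM in Luc libraries (-0.67 ± 0.032). Itgav, the alpha V chain of the activating integrins, fell to 78.5 ± 5.9 CPM in PC2, against 121.8 ± 3.2 CPM in Luc libraries (-0.63 ± 0.065). Lrrc32, which encodes a docking protein for latent TGF-beta on regulatory T cells and platelets, fell by 0.54 ± 0.046. In PC2 against Non surgery 12 were higher and 4 lower, where 31.5% of all genes were higher and 31.2% lower. Plat stood at 2.35 ± 0.080, Itgb8, another activating integrin chain, at 1.84 ± 0.17, and Mmp14 at 1.81 ± 0.045.

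Among 18 Smad genes and Smad regulators, 12 were higher and 4 lower in Luc libraries than in Non surgery ones. Over all genes tested 31.1% were higher and 27.7% lower, and the median of the 18 was 0.41. The largest rises were those of Pmepa1, a TGF-beta-induced inhibitor of Smad signalling (1.49 ± 0.054), Bambi, a decoy receptor (1.30 ± 0.092), and Skil, an inducible Smad corepressor (1.003 ± 0.042). Between PC2 and Luc libraries 4 were lower and 3 higher in PC2, and the rest did not pass. These counts lay near the shares over all genes, 18.6% lower and 16.1% higher, so the values below are those of single genes. Skil fell to 55.1 ± 1.4 CPM in PC2, against 87.3 ± 1.5 CPM in Luc libraries (-0.66 ± 0.041, adjusted p = 3.86e-09), and Pmepa1 to 92.5 ± 3.4 CPM in PC2, against 115.7 ± 6.0 CPM in Luc libraries (-0.32 ± 0.051). Smad6, an inhibitory Smad of the bone morphogenetic protein branch, rose by 0.32 ± 0.088 (adjusted p = 0.00996). In PC2 against Non surgery 12 were higher and 4 lower, where 31.5% of all genes were higher and 31.2% lower. The largest changes were those of Bambi (1.54), Pmepa1 (1.17) and Smad6 (1.08).

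Related ligands and receptors did not share one direction. Of 9 tested activin, inhibin and follistatin genes, 3 were higher and 3 were lower in Luc libraries than in Non surgery ones, and 2 higher and 2 lower in PC2 than in Luc libraries, all near the shares over all genes. In Luc against Non surgery the follistatin-like gene Fstl1 rose by 1.72 ± 0.035 and Inha, the inhibin alpha subunit, by 0.84 ± 0.21, while the myostatin gene Mstn, a muscle ligand, fell by 0.76 ± 0.080. Gdf11, a close relative of myostatin, rose by 0.82 ± 0.072 on the log2 scale in PC2 against Luc, and Fstl1 and the activin beta B subunit gene Inhbb fell by 0.35 ± 0.034 and 0.30 ± 0.10. In PC2 against Non surgery 3 were higher and 4 lower, where 31.5% of all genes were higher and 31.2% lower. Fstl1 stood at 1.37, Gdf11 at 1.26 and Inhbb at -0.76. Tdgf1, the tenth gene of the list, had 0 to 2 counts per library and was not tested.

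Of 7 further receptors and co-receptors, 4 were higher and 2 lower in Luc libraries than in Non surgery ones. Of all genes tested, 31.1% were higher and 27.7% lower, so the count of lower receptors lay near its share. Acvr1c, the type I receptor ALK7 of fat cells, rose by 1.43 ± 0.18 and the type I receptor gene Acvr1 by 1.06 ± 0.065, while Acvr1b, the type I receptor for activin, fell by 0.57 ± 0.057. Against Luc, Acvr1c (0.47 ± 0.14, adjusted p = 0.0144) and Tgfbr3 (0.20 ± 0.041), the gene of betaglycan, rose in PC2 libraries. The endothelial co-receptor gene Eng fell by 0.26 ± 0.040. That made 2 higher and 1 lower of the 7, where 16.1% of all genes were higher and 18.6% lower, so these are values of single genes. In PC2 against Non surgery 4 were higher and 2 lower, where 31.5% of all genes were higher and 31.2% lower. Acvr1c stood at 1.91, Acvr1 at 1.09 and Acvr1b at -0.70.

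The patterns of the 9 genes over the 9 libraries were compared with those of 11577 named genes of at least 5 CPM. The measure was the Euclidean distance between log2 CPM values centred on each gene's mean, and since the libraries form 3 pools it mostly reflects 2 differences between groups. Foxp1 was nearest to Tgfbr2 at 0.0848, Copb1 to Tgfbi at 0.0893 and Sema4a to Tgfb1 at 0.0916. Stox2 was nearest to Ltbp2 at 0.113, Acp5, the acid phosphatase of osteoclasts, to Tgfb3 at 0.121, Enpp6 to Tgfbr1 at 0.143, Lmna to Tgfb2 at 0.151 and Rabgap1l to Inhba at 0.162. The second nearest were Nrp2, Jdp2, Josd1, Spib, Emp2, Rai14, Pdgfrb and Ifi203 in the same order, and Fzd1 was among the 2 nearest to Ltbp1 at 0.107. The median distance from a member to all compared genes was 0.599 for Tgfb1 and 1.84 for Tgfb3. Among the 9 genes themselves, Tgfb2 and Tgfbr2 were closest at 0.214 and Tgfb1 and Tgfb3 farthest apart at 1.66.

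RefSeq's table (GRCm38.p6) holds 10 start sites for 8 of the 9 genes, and none for Tgfb3. The 250 bases before each start were searched on both strands for the core Smad motif CAGAC and for the AP-1 motif TGANTCA, to which the immediate-early Fos and Jun proteins bind; neither motif contains the other. CAGAC was found in 7 of the 10 stretches, from 6 genes, and in 42.2% of all 32851 stretches in the table. TGANTCA was found in 0 of the 10 and in 6.75% of all. A match is a description of letters only. The stretches of Tgfb1 and Inhba and the upstream one of Tgfbr1 held no CAGAC. Tgfbr1 differed in all 3 comparisons. The upstream stretch of Ltbp1 held 1 match and the downstream one 2. Whether CAGAC goes with a pattern of levels was not tested. Those shown are of Ltbp1 and Tgfbr2, which differed in all 3 comparisons, and of Inhba and Tgfb1, whose PC2 and Non surgery libraries overlapped. They run 5′ to 3′ on the gene's strand, with CAGAC or its reverse complement in capitals, and are those of Ltbp1 at its downstream start (chr17:75178531-75178780, plus strand), Tgfbr2 (chr9:116175364-116175613, minus strand), Inhba (chr13:16011601-16011850, plus strand) and Tgfb1 (chr7:25686752-25687001, plus strand).
Ltbp1: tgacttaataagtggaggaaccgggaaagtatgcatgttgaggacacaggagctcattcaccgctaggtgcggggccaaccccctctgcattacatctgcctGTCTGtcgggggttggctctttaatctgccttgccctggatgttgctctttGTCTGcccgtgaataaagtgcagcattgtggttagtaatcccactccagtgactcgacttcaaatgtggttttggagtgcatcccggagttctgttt
Tgfbr2: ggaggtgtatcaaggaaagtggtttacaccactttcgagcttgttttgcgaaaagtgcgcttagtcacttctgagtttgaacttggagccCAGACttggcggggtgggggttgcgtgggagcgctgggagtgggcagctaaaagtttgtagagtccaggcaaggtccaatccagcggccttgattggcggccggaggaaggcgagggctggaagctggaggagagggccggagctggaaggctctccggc
Inhba: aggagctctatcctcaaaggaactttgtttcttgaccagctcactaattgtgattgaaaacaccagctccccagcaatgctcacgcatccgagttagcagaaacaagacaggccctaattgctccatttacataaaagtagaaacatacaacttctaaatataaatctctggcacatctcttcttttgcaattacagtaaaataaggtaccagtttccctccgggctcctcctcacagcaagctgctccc
Tgfb1: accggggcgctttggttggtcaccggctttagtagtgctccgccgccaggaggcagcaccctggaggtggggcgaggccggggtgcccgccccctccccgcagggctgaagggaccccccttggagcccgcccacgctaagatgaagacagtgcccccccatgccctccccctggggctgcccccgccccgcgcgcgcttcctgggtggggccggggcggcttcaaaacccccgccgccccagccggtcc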

How the data were processed

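RNA sequencing of 9 libraries was analysed from read counts per Ensembl gene ID as deposited by the authors, 1 table of 53379 gene IDs per library with 5 summary lines, which stayed out of sizes and tests. Those for reads outside genes and for ambiguous reads held 7.29% to 9.25% and 5.72% to 6.65% of the reads. HISAT2, HTSeq, DESeq2 and mm10 are named in the submitters' processing notes; the sources used here give no versions, annotation or strand setting. Symbols and exon lengths came from GENCODE M21 (GRCm38), which held 53274 of the IDs.

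All libraries entered 1 quasi-likelihood fit in edgeR 4.0.16 (R 4.3.3) with a group factor, TMM factors and filterByExpr (minimum count 10). The 3 contrasts were two-sided, with Benjamini-Hochberg adjustment over all 17478 genes, and a gene was called higher or lower (rose or fell) at an adjusted p under 0.05. Each standard error is the absolute log2 fold change divided by the root of its F statistic. CPM are on the TMM scale. Levels, shares and ratios are mean ± SD over 3 libraries. The ± beside a log2 fold change, or beside a rise or fall on the log2 scale, is always its standard error (SE). TMM factors and library totals set CPM, and division by exon length gave CPM per kilobase. Shares were compared with exact permutation tests over the technical repeats.

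The members and the 14 lists (5 of pathway genes, 8 of cell type markers, 1 of immediate-early genes) were chosen with earlier results of these data known. Named are the members, Ltbp3 and Ltbp4, the 3 largest called changes per pathway list and comparison with separate libraries and at least 1 CPM, the 2 most abundant genes per marker list, and the 2 genes most like each member; some genes this rule chose are not reported here. The protein sequences planned were not used here; promoters came from RefSeq. Alternatives were other scalings (median-of-ratios, upper-quartile, library size), filters (none; at least 1 CPM in 3 libraries), DESeq2 1.42.0, fits of 2 groups, a replicate block and leaving out each library. Libraries of a group differed by more than counting noise (chi-square per degree of freedom 3.94 to 8.67). Counts were also simulated for PC2 against Luc (16934 genes) and fitted without Non surgery libraries. That fit recovered 80% of genes changed 1.5-fold and 96% of those changed 2-fold, and called 11 unchanged genes. No fold under 1.5 was simulated. The largest fall of a member in PC2 against Luc was 1.38-fold (Ltbp2), so recovery at the sizes of the members was not measured.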

Additional observations from a re-analysis of the deposited data

How the results depend on the processing

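Each of the 27 log2 fold changes of the 9 genes was recomputed under 17 alternatives. Tgfb3 in PC2 against Luc, which passed under none of them, ran from -0.03 to 0.028; no other value changed sign. In Luc against Non surgery all 153 kept their call; in PC2 against Luc 144 of 153 did, with 4 calls lost and 5 gained, and in PC2 against Non surgery 146 of 153, with 7 gained. The counts of members called stayed within 1.5 times of those reported. The calls that moved when a library or a scaling was changed stand beside the genes; Tgfb1 in PC2 against Luc also passed with only these 2 groups in the fit (adjusted p = 0.0109) and without a count filter (adjusted p = 0.0476). The causes were not tested.

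Replicate numbers did not pair the libraries: deviations of same-numbered libraries correlated at -0.0274 to 0.0567. With a replicate block, 9 members were higher in Luc against Non surgery, 8 lower in PC2 against Luc (Tgfb1 added, adjusted p = 0.0395) and 8 higher in PC2 against Non surgery (Inhba added, adjusted p = 0.0281).

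Without division by exon length, by construction, the shares differed. In PC2, Luc and Non surgery libraries Tgfb1 then took 64.0%, 64.5% and 78.1% of the ligand counts, Tgfb2 14.1%, 14.98% and 10.4%, and Tgfb3 21.9%, 20.5% and 11.4%. Ltbp1 took 12.7%, 15.4% and 18.6% of its family, Ltbp3 40.9%, 34.8% and 24.5%, and Ltbp4 32.7%, 31.3% and 36.9%, and Ltbp2 13.6%, 18.5% and 19.98%, so that Ltbp3 in place of Ltbp4 was the largest part in PC2 and Luc libraries. At 370 to 5390 counts per member and library, the SD between repeats bounds the precision; the spread between mice was not measured.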
